A study of Mus musculus with 3 samples.

Results

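The interleukin 1 family was followed here as 10 ligand, antagonist, receptor and decoy genes, out of 32285 genes counted in single cells of healing mouse skin. The members were taken by gene name and Ensembl identifier, with no cut on their values, but with earlier results of these data known. They were *Il1a*, *Il1b*, *Il1rn*, *Il1r1*, *Il1r2*, *Il1rap*, *Il1rl1*, *Il33*, *Il18* and *Il18bp*. All 10 had UMIs (unique molecular identifiers, each standing for 1 captured RNA molecule) in all 3 libraries, from 1239 for *Il18bp* to 114099 for *Il1b* over the cells used. The scRNA-Seq was done on full-thickness punch wounds in the back skin of male C57BL/6J mice of 7 to 12 weeks, collected 3, 7 or 14 days after injury (Days 3, 7, and 14). The labels name no transgene or treatment, and uninjured skin was not analysed here. The tissue was dissociated whole and the cells were not sorted. Wounds were pooled into 1 library per day, so there is no replicate error, no test between days was possible, and every interval is a 95% interval that covers counting error only.

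Interleukin 1 comes in an alpha form, held in cells and released upon damage, and a beta form, made as an inactive precursor and cut by caspase 1. Both bind the receptor IL1R1, which signals only together with the accessory protein IL1RAP. IL1RN occupies IL1R1 without signalling, and IL1R2 is a decoy that binds the ligands but lacks a signalling domain. IL33, a nuclear alarmin of fibroblasts, epithelium and vessels, uses ST2 (gene *Il1rl1*), again with IL1RAP. IL18 is a further caspase 1 substrate, held in check by the soluble IL18BP. In skin wounds the family is known for early neutrophil recruitment and for inflammatory gene expression in fibroblasts. Counts per gene do not separate the membrane and soluble forms of IL1R2, IL1RAP and ST2.

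*Il1a* and *Il1b* lie on the minus strand of chromosome 2 in mm10, at chr2:129299610-129309972 and chr2:129364570-129371139. The promoters of these 2 ligand genes are shown because the genes lie on the same chromosome and strand and their RNA was held in different proportions by the same classes, as given below. The sequences are RefSeq's on GRCm38.p6, the 250 bases before each start, chr2:129309973-129310222 for *Il1a* and chr2:129371140-129371389 for *Il1b*, written 5′ to 3′ on the minus strand. Capitals mark TATAAA, which was searched on both strands.

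Il1a: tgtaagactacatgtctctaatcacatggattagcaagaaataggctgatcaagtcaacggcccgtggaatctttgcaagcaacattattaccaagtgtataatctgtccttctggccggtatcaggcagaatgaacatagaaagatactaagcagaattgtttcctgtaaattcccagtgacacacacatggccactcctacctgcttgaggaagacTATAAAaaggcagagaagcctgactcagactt
Il1b: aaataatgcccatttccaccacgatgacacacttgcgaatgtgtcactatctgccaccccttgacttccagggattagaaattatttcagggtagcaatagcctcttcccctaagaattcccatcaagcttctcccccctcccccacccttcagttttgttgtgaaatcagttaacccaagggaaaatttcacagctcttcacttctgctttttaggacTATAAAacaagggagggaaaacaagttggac

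TATAAA began 32 bases before the start in *Il1a* and 31 bases before it in *Il1b*. Over windows that also hold the 50 bases after the start, it was found in 13.6% of the 32851 promoters in the RefSeq table. The NF-κB consensus, searched on both strands of the same windows, was in 5.80% of them and in none of the 15 windows of the 10 members, which says only that those letters are not there. *Il1rn* (chr2:24336853-24351494) is on the plus strand of the same chromosome. The receptor genes *Il1r2* (chr1:40074079-40125231), *Il1r1* (chr1:40225080-40317257) and *Il1rl1* (chr1:40429570-40465415) follow each other on the plus strand of chromosome 1. *Il1rap* (chr16:26581704-26730117), *Il33* (chr19:29925114-29960718), *Il18* (chr9:50554827-50581840) and *Il18bp* (chr7:102014885-102018690) lie on other chromosomes. *Il1r1* and *Il1r2* each overlap 1 other annotated gene on their strand, so their counts are less certain in the overlap.

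The number of barcodes was 5158 in the Day 3 library, 22924 in the Day 7 library and 16611 in the Day 14 library, their total depth 38133650, 120940799 and 112713257 UMIs, and 4360, 19590 and 13510 cells were used after the filters and the removal of doublets. Days 3 and 7 shared 43 barcodes, Days 3 and 14 shared 19, and Days 7 and 14 shared 111. Clusters of cells were given a class from standard marker genes, with the members kept out of clustering and naming. Fibroblast-like cells numbered 506, 6284 and 7899, macrophage-like cells (monocytes included) 2846, 9576 and 3138 and neutrophil-like cells 483, 1291 and 12. The 11 macrophage markers summed to 10812, 14751 and 19017 CPM in macrophage-like cells on the 3 days and to 102, 335 and 209 CPM in fibroblast-like cells. Cluster 23, with 393 cells on Day 3 and 360 on Day 7, was led by *Il23a*, *Ccl3*, *Hcar2* and *Tnf*, counted 8 of the 9 neutrophil markers and had few UMIs per cell (median 1380 and 840). The neutrophil markers summed to 43218 and 36266 CPM in cluster 23 on Days 3 and 7, against 60920 and 37579 CPM in neutrophil-like cells. Cluster 23 stayed unnamed under the naming rule and is given by its number, a choice made after its values were seen. Levels are CPM, the UMIs of a gene per 1000000 UMIs of a class in a library. RNA of other cells was present in each class, with the fibroblast markers summing to 427, 3804 and 4964 CPM in macrophage-like cells on Days 3, 7, and 14, against 70245, 116855 and 138573 CPM in fibroblast-like cells.

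**Figure D1:**
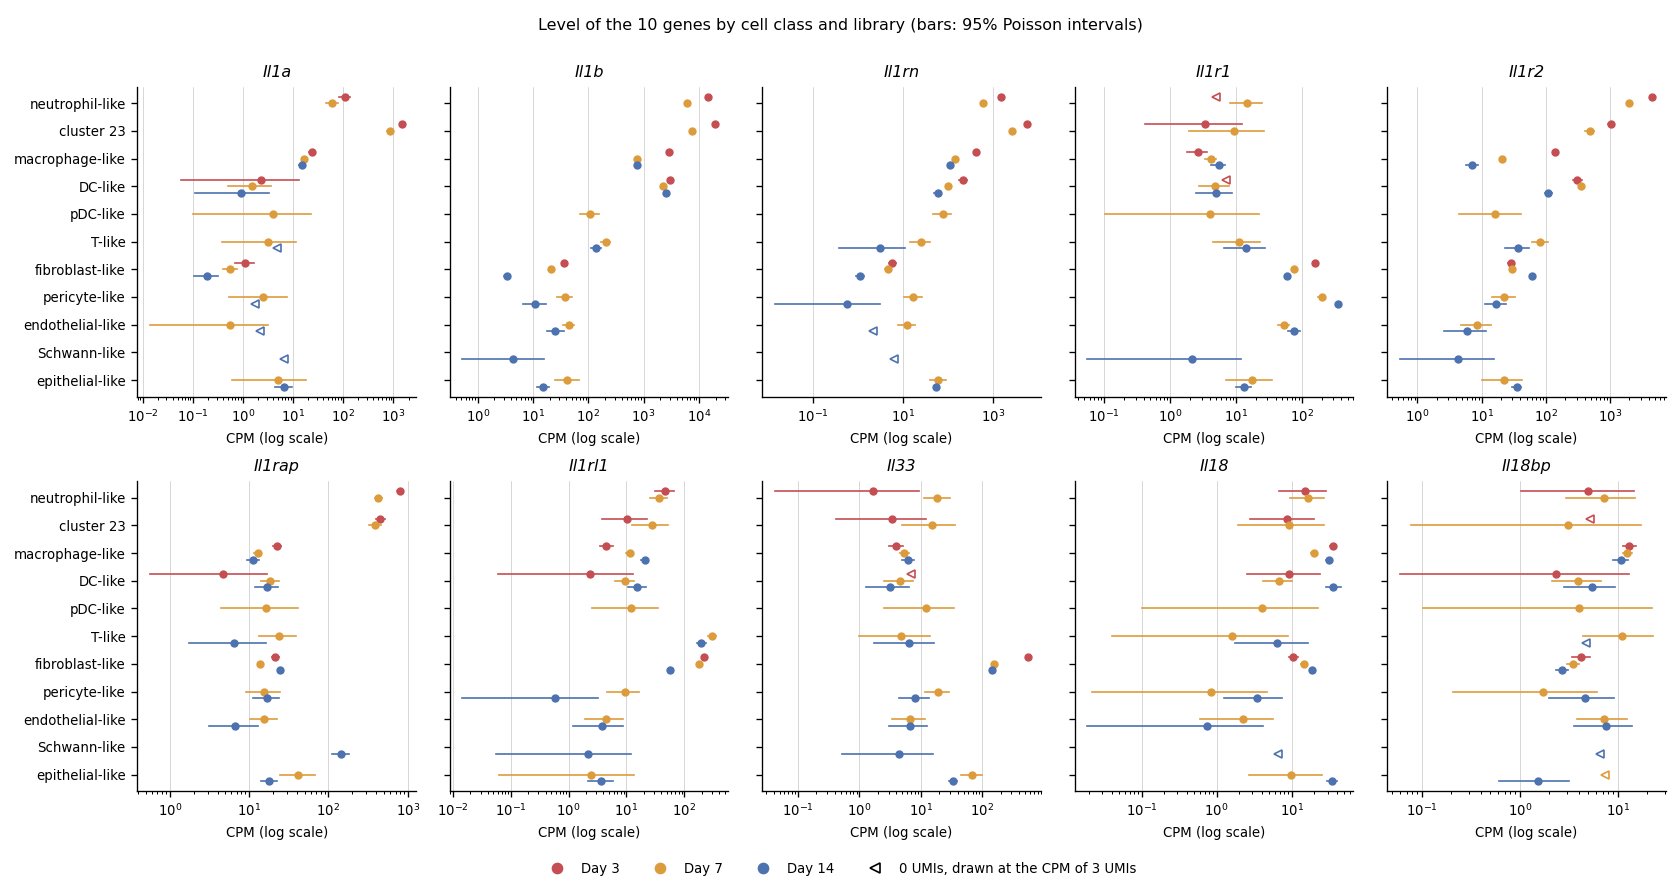
Level of each of the 10 genes in CPM on a log scale, by class (rows, at least 50 cells) and by library (colours). Bars are 95% Poisson intervals, and open triangles mark 0 UMIs, drawn at the CPM of 3 UMIs. *Il1b*, *Il1rn*, *Il1r2* and *Il1rap* are highest in neutrophil-like cells and cluster 23, and *Il33* in fibroblast-like cells.

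*Il1b* was the ligand of the myeloid cells. Its level in neutrophil-like cells was 14808 (14503 to 15118) CPM on Day 3 and 6068 (5913 to 6226) on Day 7. In cluster 23 it was 19856 (19496 to 20222) and 7595 (7298 to 7901) CPM. Macrophage-like cells held 2855 (2826 to 2884), 754 (744 to 764) and 766 (750 to 781) CPM on Days 3, 7, and 14. Day 3 stood above the later days in all 3 groups, whereas Days 7 and 14 lay close together in macrophage-like cells, with a log2 ratio of 0.02 (-0.01 to 0.06). The Day 3 neutrophil-like cells were nearly all in cluster 31 (438 cells) and those of Day 7 in cluster 11 (1271 cells). Dendritic cell-like cells were at 3028 (2866 to 3197), 2281 (2230 to 2333) and 2496 (2431 to 2563) CPM. Their share of all *Il1b* UMIs of a library was 2.15%, 19.7% and 35.4%. Macrophage-like cells held 62.8%, 53.8% and 60.2%, so that on Days 7 and 14 the dendritic share came next. On Day 3 cluster 23 came next with 19.1% and then neutrophil-like cells with 14.8%, from 9.01% and 11.1% of the cells.

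Macrophage-like cells of the 3 days were in different clusters, which differed widely in *Il1b*. On Day 3, cluster 1 (1746 cells, led by *Ppbp*, *Arg1* and *Lgmn*) was at 1857 (1826 to 1889) CPM and cluster 20 (771 cells, led by *Chil3*, *Gm9733* and *Ms4a4c*) at 4728 (4668 to 4789). On Day 7, cluster 2 (1582 cells, with the monocyte genes *Ly6c2* and *Ccr2*) was at 2632 (2580 to 2685) CPM. Cluster 0 (1765 cells, *Cx3cr1* and *Ms4a7*) was at 227 CPM, cluster 5 (1526 cells, *Arg1* and *Ppbp*) at 565 and cluster 6 (1464 cells, *Fcna* and *Lyve1*) at 122. The cluster with monocyte genes thus stood far above the others named here within 1 library. On Day 14, clusters 18 (529 cells, *Slamf7* and *C1qb*) and 25 (476 cells, *Lyz1* and *Retnla*) were at 1522 and 1044 CPM, and clusters 9 (900 cells, *Ccl8* and *Il10*) and 24 (590 cells, *Ccl8* and *Gpr34*) at 300 and 311.

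**Figure D2:**
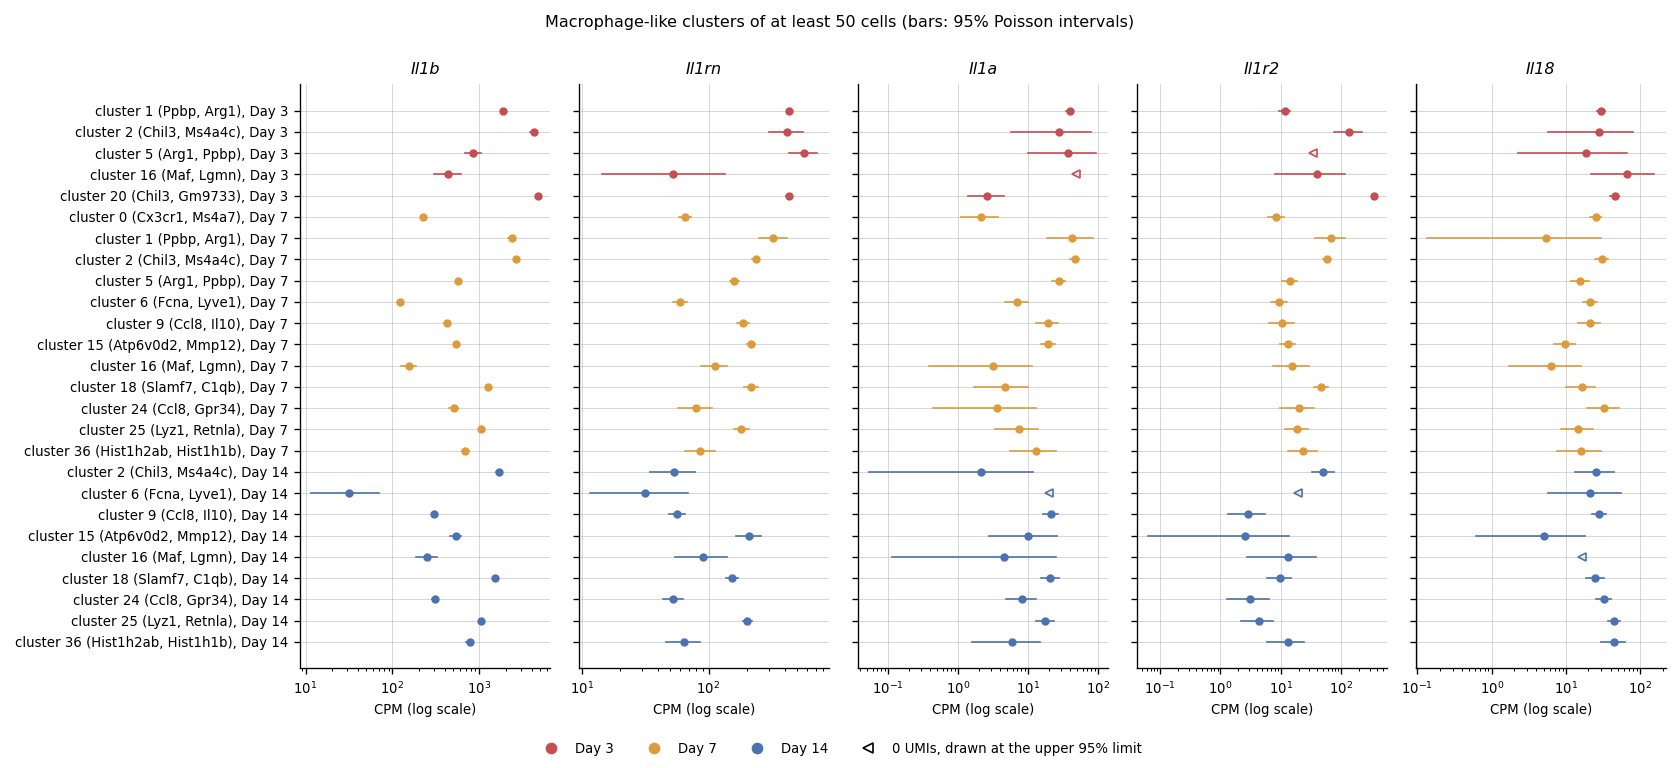
Levels of members (panels) in CPM on a log scale in macrophage-like clusters with at least 50 cells in a library (rows, with 2 leading genes; colours for days). Bars are 95% Poisson intervals, and open triangles mark 0 UMIs, drawn at the upper limit. *Il1r2* on Day 3 is at 355 CPM in cluster 20 and 11.6 CPM in cluster 1.

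Fibroblast-like cells had *Il1b* at 35.6, 21.3 and 3.34 CPM on Days 3, 7, and 14. On Day 3 they held 1115 *Il1b* UMIs per 1000 UMIs of the neutrophil gene *S100a9*, close to the 1026 in cluster 23, against 587 in neutrophil-like and 56479 in macrophage-like cells. On Day 7 the values were 581 in fibroblast-like cells, 436 in cluster 23, 361 in neutrophil-like and 12973 in macrophage-like cells. On Day 14 fibroblast-like cells had 244 *Il1b* UMIs beside 3 of *S100a9*, and 109 *Il1b* UMIs per 1000 UMIs of the macrophage gene *Lyz2*, against 99.3 in macrophage-like cells. With each cell thinned to 500 UMIs, 0.791%, 1.08% and 0.304% of fibroblast-like cells had an *Il1b* UMI, against 41.1%, 11.9% and 2.33% unthinned at median depths of 38070, 10024 and 9198 UMIs. Pericyte-like cells, another mesenchymal class, were at 2.72% and 0.465% thinned on Days 7 and 14 (median depths 5549 and 3928). The fibroblast shares of those days were no higher than in that class. The classes differed in depth, so this comparison cannot tell where the *Il1b* UMIs came from. The pericyte shares rest on 5 of 184 and 2 of 430 cells, and Day 3, with 8 pericyte-like cells, was not compared. The source of the fibroblast *Il1b* UMIs, and whether these cells express the gene, was not tested.

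*Il1a*, the damage-released ligand, stood highest in cluster 23. Cluster 23 was at 1478 (1381 to 1580) CPM on Day 3 and 853 (756 to 960) on Day 7. Neutrophil-like cells were at 106 (81.5 to 135) and 59.3 (44.9 to 76.9) CPM. Macrophage-like cells were at 23.4 (20.9 to 26.1), 16.7 (15.2 to 18.3) and 15.2 (13.1 to 17.5) CPM on the 3 days. Cluster 23 held 68.3% of all *Il1a* UMIs on Day 3, when macrophage-like cells held 24.8%. Macrophage-like cells held the most on the later days, with 54.1% on Day 7, when cluster 23 held 33.1%, and 77.9% on Day 14. The number of *Il1a* UMIs per *Il1b* UMI on Day 3 was 0.0744 (0.0694 to 0.0798) in cluster 23, 0.00715 (0.00550 to 0.00913) in neutrophil-like and 0.00819 (0.00731 to 0.00916) in macrophage-like cells. The clusters of macrophage-like cells did not share 1 order for both ligands: cluster 20, which had the more *Il1b* on Day 3, was at 2.62 (1.40 to 4.48) CPM of *Il1a*, and cluster 1 at 39.2 (34.7 to 44.0). In dendritic cell-like cells *Il1a* had 1, 5 and 2 UMIs, beside 1298, 7482 and 5554 of *Il1b*. Epithelial cell-like cells on Day 14 were at 6.54 (4.41 to 9.33) CPM, held 12.5% of the *Il1a* UMIs and had 0.429 (0.270 to 0.666) *Il1a* UMIs per *Il1b* UMI.

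**Figure D3:**
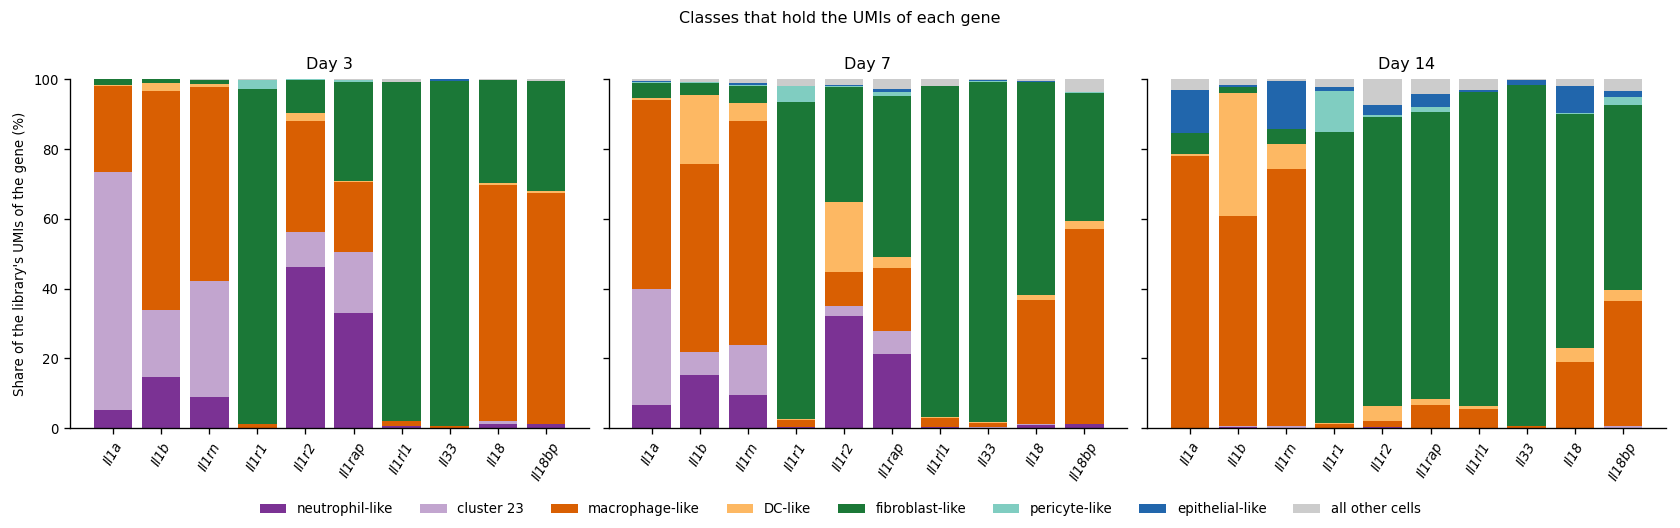
Share of each gene's UMIs in a library held by each class (colours), in percent, with 1 bar per gene and 1 panel per day. *Il33*, *Il1rl1* and *Il1r1* are mainly in fibroblast-like cells on all 3 days, while fibroblast-like cells hold 9.44%, 32.9% and 82.6% of *Il1r2*.

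On Days 3 and 7 the antagonist gene *Il1rn* was highest in cluster 23 and neutrophil-like cells, which were also highest in *Il1b*. Cluster 23 was at 5822 (5627 to 6022) and 2683 (2507 to 2867) CPM on Days 3 and 7. Neutrophil-like cells were at 1505 (1408 to 1606) and 610 (562 to 661) CPM. Macrophage-like cells were at 426 (415 to 437), 145 (140 to 149) and 111 (105 to 117) CPM. Dendritic cell-like cells were lower on each day, at 219, 99.4 and 59.8 CPM, though they had more *Il1b* than macrophage-like cells on Days 7 and 14. As for *Il1b*, Day 3 was the highest in these groups, but macrophage clusters 1 and 20 were alike on Day 3, at 431 and 430 CPM. The number of *Il1rn* UMIs per *Il1b* UMI on Day 3 was 0.293 (0.282 to 0.305) in cluster 23, 0.149 (0.145 to 0.153) in macrophage-like, 0.102 (0.0948 to 0.109) in neutrophil-like and 0.0724 (0.0581 to 0.0893) in dendritic cell-like cells. On Day 14 it was 0.145 (0.137 to 0.153) in macrophage-like and 0.0239 (0.0200 to 0.0284) in dendritic cell-like cells. Epithelial cell-like cells stood at the other end, with 3.66 (2.80 to 4.83) on Day 14 and a level of 55.8 (49.1 to 63.0) CPM. They held 13.7% of the *Il1rn* UMIs of that library in 5.16% of its cells.

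The decoy gene *Il1r2* was held by other classes on Day 14 than on Day 3. Neutrophil-like cells were at 4472 (4305 to 4644) CPM on Day 3 and 1935 (1848 to 2025) on Day 7, and held 46.1% and 32.3% of its UMIs. Cluster 23 was at 1023 and 480 CPM on these days. Macrophage-like cells were at 141 (135 to 147), 20.6 (19.0 to 22.4) and 7.13 (5.72 to 8.79) CPM. On Day 3 most of it was in cluster 20, at 355 (339 to 372) CPM with 1762 of 1873 UMIs, while cluster 1 was at 11.6 (9.30 to 14.4). The macrophage-like class had 2787 *Il1r2* UMIs per 1000 *S100a9* UMIs on Day 3, against 177 in neutrophil-like cells. Dendritic cell-like cells were at 310 (260 to 368), 352 (332 to 373) and 109 (95.9 to 124) CPM, the last lower in cluster 13 (*Cd209e* and *Cd209a*), which was at 436 on Day 7 and 118 on Day 14. Fibroblast-like cells were at 28.2 (25.9 to 30.7), 29.6 (28.3 to 31.0) and 60.1 (58.3 to 61.9) CPM. With 12 neutrophil-like cells in the Day 14 library, fibroblast-like cells held 82.6% of its *Il1r2* UMIs.

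On Day 14 the fibroblast *Il1r2* was mostly in 2 clusters. Cluster 14 (1075 cells, led by *Wfdc12*, *Gal* and *Cdh4*, with the tendon gene *Tnmd* and the chemokine *Ccl19*) was at 152 (145 to 160) CPM. Cluster 17 (890 cells, led by *Cxcl13*, *Efhd1* and *Akr1c18*, with the adventitial gene *Pi16*) was at 149 (141 to 157) CPM. They held 1691 and 1270 of the 4396 *Il1r2* UMIs of the class, which had 3 UMIs of *S100a9*. The matrix-gene cluster 10 (*Thbs4*, *Eln* and *Cilp*) was at 12.9 CPM on that day, cluster 28 (*Prss35*, *Tnn* and *Col12a1*) at 2.72 and cluster 34 (*Kera* and *Tac1*) at 2.21. On Day 7, cluster 17 was at 130 (108 to 155) CPM with 127 cells and cluster 21 (752 cells, also with *Pi16*) at 76.0 (69.3 to 83.1), while cluster 4 (1597 cells, *H19*, *Lrrc15* and *Tnc*) was at 8.04.

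**Figure D4:**
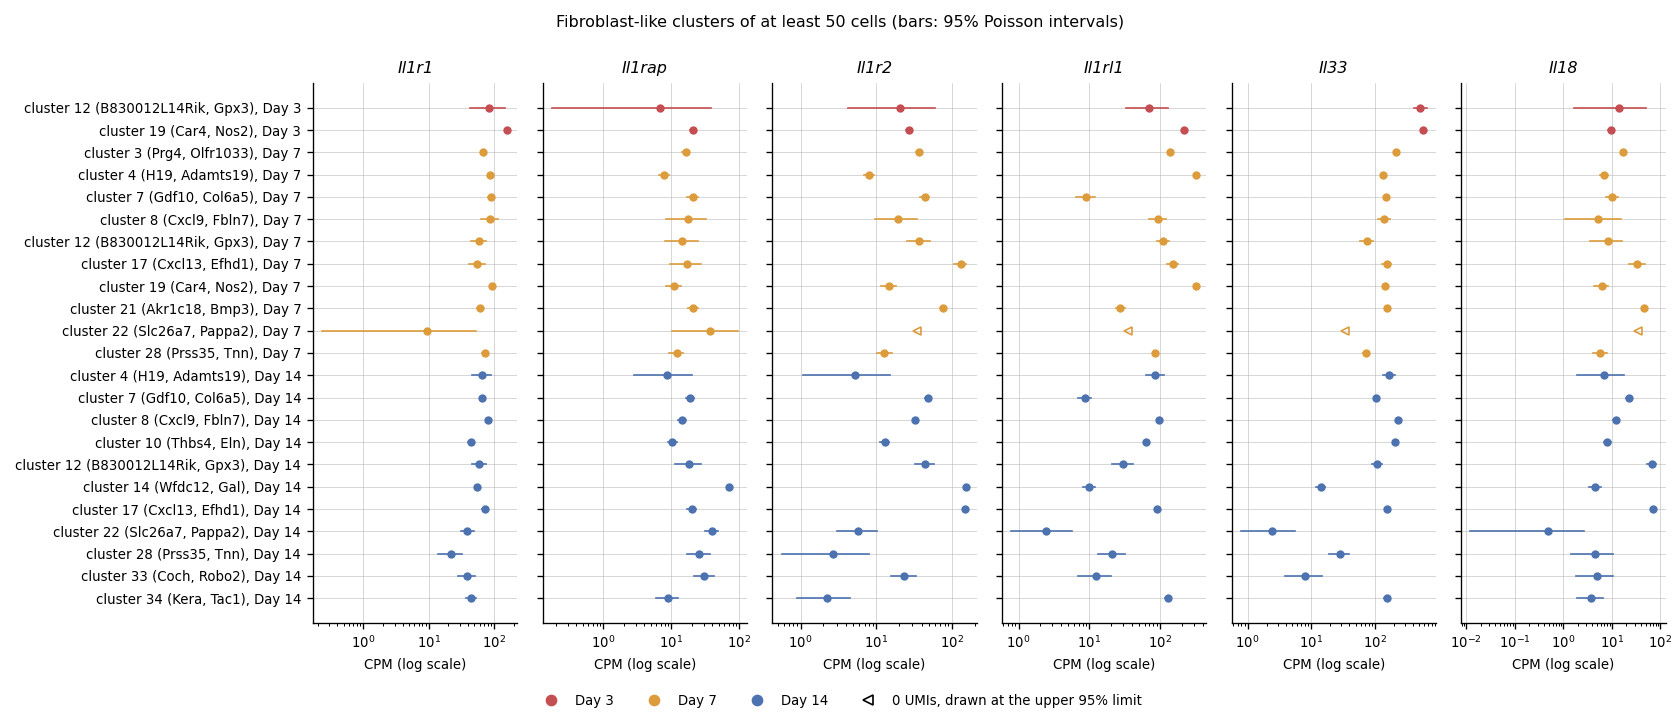
Levels of members (panels) in CPM on a log scale in fibroblast-like clusters with at least 50 cells in a library (rows, with 2 leading genes; colours for days). Bars are 95% Poisson intervals, and open triangles mark 0 UMIs, drawn at the upper limit. Clusters 14 and 17 hold the highest *Il1r2* on Day 14, at 152 and 149 CPM, and cluster 14 the highest *Il1rap*, at 71.5 CPM.

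The signalling receptor gene *Il1r1* was highest in fibroblast-like, pericyte-like and endothelial cell-like cells. Its level in fibroblast-like cells was 157 (151 to 162) CPM in the Day 3 library, 76.4 (74.2 to 78.5) in the Day 7 library and 60.3 (58.6 to 62.1) in the Day 14 library. Pericyte-like cells were at 201 (176 to 228) on Day 7 and 358 (331 to 387) on Day 14, above fibroblast-like cells on both days. Endothelial cell-like cells were at 52.9 (42.8 to 64.7) and 76.3 (62.2 to 92.6) CPM. They had 29.1 and 27.7 *Il1r1* UMIs per 1000 UMIs of the fibroblast gene *Col1a1*, against 1.85 and 1.19 in fibroblast-like cells. Macrophage-like cells were at 2.63, 4.13 and 5.43 CPM, and neutrophil-like cells had 0 UMIs on Day 3, where 3 UMIs would be 4.96 CPM. After thinning to 500 UMIs, 7.91%, 3.47% and 2.81% of fibroblast-like cells had an *Il1r1* UMI (74.9%, 44.2% and 35.0% unthinned), against 0.0703%, 0.324% and 0.382% of macrophage-like cells at median depths of 4190, 2548 and 3619 UMIs. Fibroblast-like cells held 96.1%, 90.9% and 83.4% of all *Il1r1* UMIs, and pericyte-like cells 4.37% and 11.8% on Days 7 and 14. Among fibroblast-like clusters of Day 14 the level lay between 21.8 CPM in cluster 28 and 80.1 (75.9 to 84.5) in cluster 8 (1449 cells, *Cxcl9*, *Fbln7* and *Hmcn2*).

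The accessory chain gene *Il1rap* had another distribution. It was at 804 (734 to 878) and 425 (384 to 468) CPM in neutrophil-like cells on Days 3 and 7, and at 450 (397 to 508) and 391 (326 to 465) in cluster 23. Schwann cell-like cells were at 143 (111 to 182) CPM on Day 14, from 103 cells. *Il1r1* was scarce in both classes, with 14 *Il1r1* and 408 *Il1rap* UMIs in neutrophil-like cells on Day 7 and 1 and 66 in Schwann cell-like cells. Fibroblast-like cells were at 21.5 (19.5 to 23.6), 13.8 (12.9 to 14.8) and 24.4 (23.3 to 25.6) CPM of *Il1rap*. On Day 14, cluster 14 was at 71.5 (66.6 to 76.7) CPM and cluster 22 (713 cells, *Slc26a7*, *Prlr* and *Lef1*) at 39.6 (31.5 to 49.2), against 10.4 in cluster 10 and 8.83 in cluster 34. The number of *Il1rap* UMIs per *Il1r1* UMI in fibroblast-like cells was 0.137 (0.123 to 0.152), 0.181 (0.168 to 0.195) and 0.405 (0.383 to 0.428), and that of *Il1r2* per *Il1r1* was 0.180 (0.164 to 0.197), 0.388 (0.367 to 0.409) and 0.997 (0.956 to 1.04). Both ratios were highest on Day 14 in fibroblast-like cells, while pericyte-like cells on that day had 0.0466 (0.0310 to 0.0676) *Il1rap* and 0.0466 (0.0310 to 0.0676) *Il1r2* UMIs per *Il1r1* UMI.

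The alarmin gene *Il33* was mostly in fibroblast-like cells, which held 10839 of its 10946 UMIs in the Day 3 library and 97.5% of them in each of the other two. Its level there was 553 (542 to 563), 156 (153 to 160) and 146 (143 to 148) CPM in the libraries of Days 3, 7, and 14. Day 3 was far above the later days, which differed little. Per 1000 *Col1a1* UMIs, macrophage-like cells had 26.8, 3.83 and 3.09 UMIs of *Il33* and fibroblast-like cells 24.6, 3.80 and 2.87. In epithelial cell-like cells these were 21.2 and 18.3 on Days 7 and 14, with levels of 69.0 (45.9 to 99.8) and 33.5 (28.5 to 39.3) CPM. The macrophage ratios were thus close to the fibroblast ones and the epithelial ratios of Days 7 and 14 several times higher. On Day 14 the fibroblast-like clusters went from 2.42 CPM in cluster 22, 8.12 in cluster 33 (*Coch*, *Robo2* and *Itga8*) and 14.1 in cluster 14 to 208 in cluster 10 and 229 in cluster 8. Cluster 14, which had the highest CPM of *Il1rap* and *Il1r2*, was thus among the 3 clusters with the least *Il33*.

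*Il1rl1*, the receptor gene for IL33, was held by the same class as its ligand, with 4316 of 4448 UMIs in fibroblast-like cells in the Day 3 library, and 94.9% and 90.2% of them in the other two. Its level there was 220 (213 to 227), 176 (173 to 179) and 57.1 (55.4 to 58.9) CPM. Unlike *Il33* it was still high on Day 7. On that day clusters 4 and 19 (394 cells, *Car4*, *Nos2* and *Prg4*) were at 314 and 315 CPM, and cluster 7 (559 cells, *Gdf10*, *Col6a5* and *C7*) at 8.84. T cell-like cells were at 304 (262 to 350) CPM on Day 7 and 196 (163 to 234) on Day 14. In this class the mast cell markers summed to 489 and 84.5 CPM on Days 7 and 14 and the basophil markers to 75.9 and 1.59, and the part of such cells in its *Il1rl1* was not tested. Per 1000 *Col1a1* UMIs it had 152 and 69.0, against 4.27 and 1.13 in fibroblast-like cells. Thinned to 500 UMIs, 9.92% and 10.1% of T cell-like cells had an *Il1rl1* UMI (median depths 1407 and 1754), against 0.196% and 0.652% of dendritic cell-like cells (3108 and 4759). Macrophage-like cells were at 4.51 (3.44 to 5.81), 11.3 (10.0 to 12.6) and 20.7 (18.2 to 23.4) CPM, and fibroblast marker RNA in that class was also higher on each later day, as given above. Per 1000 *Col1a1* UMIs they had 30.4, 7.95 and 10.2 *Il1rl1* UMIs, against 9.78, 4.27 and 1.13 in fibroblast-like cells. The part of fibroblast RNA in the macrophage values was not tested. The macrophage-like clusters 25 and 36 (the latter with the proliferation genes *Mki67* and *Birc5*) were at 45.5 (38.0 to 54.2) and 40.7 (27.0 to 58.8) CPM on Day 14. Other macrophage-like clusters of that day were at or below 22.4.

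*Il18* and its binding protein were at low levels in these classes. Macrophage-like cells had *Il18* at 35.4 (32.2 to 38.7), 19.9 (18.3 to 21.7) and 31.4 (28.4 to 34.7) CPM, so Day 7 was the lowest. Fibroblast-like cells were at 10.5, 14.4 (13.5 to 15.4) and 18.7 (17.7 to 19.7) CPM, higher on each later day. Dendritic cell-like cells were at 6.71 (4.20 to 10.2) CPM on Day 7 and 36.0 (28.5 to 44.7) on Day 14, a log2 ratio of 2.42 (1.73 to 3.17). In this class the macrophage markers went from 1806 to 3098 CPM and the epithelial markers from 45.4 to 199, and their part in the *Il18* ratio was not tested. Epithelial cell-like cells were at 34.2 CPM on Day 14. Fibroblast *Il18* was highest in the clusters with *Pi16*, at 47.0 (41.8 to 52.7) CPM in cluster 21 on Day 7 and 71.7 (66.2 to 77.7) in cluster 17 on Day 14, and in cluster 12 (66.5 CPM on Day 14, 1458 median UMIs), and was 4.50 in cluster 14. *Il18bp* was at 13.1 (11.2 to 15.2), 12.5 (11.2 to 13.9) and 10.8 (9.02 to 12.8) CPM in macrophage-like cells, where the intervals overlapped between neighbouring days, and at 4.23, 3.49 and 2.69 CPM in fibroblast-like cells. The number of *Il18bp* UMIs per *Il18* UMI in fibroblast-like cells was 0.403 (0.308 to 0.522), 0.242 (0.208 to 0.281) and 0.144 (0.124 to 0.168).

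Between days a member was counted when its level differed at least 2-fold, given at least 20 UMIs in both sums together. In macrophage-like cells 3 of the 10 members were that much lower on Day 7 than on Day 3, where 5.40% of all 12560 genes compared were. They were *Il1b*, with a log2 ratio of -1.92 (-1.95 to -1.90), *Il1rn*, with -1.56 (-1.62 to -1.50), and *Il1r2*, with -2.77 (-2.91 to -2.63). The *Il1r2* ratio was 0.27 when each library was clustered alone. *Il1rl1* was higher (1.32, 0.92 to 1.74), as were 12.7% of all genes. From Day 7 to Day 14, *Il1r2* was lower (-1.53, -1.87 to -1.21; 6.51% of 12844 genes) and no member was 2-fold higher (5.65% of genes). The median log2 ratio of members was -0.64 beside 0.01 over all genes for Day 7 over Day 3, and -0.06 beside -0.11 for Day 14 over Day 7.

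In neutrophil-like cells *Il1b* (-1.29, -1.33 to -1.24), *Il1rn* (-1.30, -1.45 to -1.15) and *Il1r2* (-1.21, -1.29 to -1.12) were lower on Day 7, 3 of the 7 members compared. Of 4983 genes 9.37% were lower and 17.5% higher. With the 50 most abundant genes left out of the scaling, which moved the median over all genes from 0.04 to 0.47, none of the 3 was past 2-fold, and 3.91% of genes were lower and 28.4% higher. The number of members past 2-fold was 5 at a mitochondrial limit of 5%, 6 at 20% and 5 with each library clustered alone. In each case *Il1r2* was not among them, *Il1a* was lower and *Il33* higher. Of all genes, 8.03%, 7.86% and 8.14% were lower and 18.1%, 18.9% and 17.1% higher in these settings. With doublets kept the number of members was 6, where *Il1rap* was lower and *Il33* and *Il18bp* higher beside the 3 above. The median over all genes was then 0.31, and 8.57% of genes were lower and 28.4% higher. With cluster 23 added to the class, *Il1b*, *Il1rn* and *Il1a* were past 2-fold lower, *Il1r2* was not, and *Il33* was past 2-fold higher. Of all genes, 8.20% were lower and 17.6% higher with that cluster added. The *Il33* sums then rested on 1 and 2 UMIs in the neutrophil-like cells and cluster 23 on Day 3, and 18 and 5 on Day 7. As reported, the neutrophil-like class was under the minimum of 20 *Il33* UMIs, nearly all of them from Day 7, and *Il33* was not compared. The cells of the 2 days were mostly in different clusters, 31 and 11. In the neutrophil-like class the neutrophil markers summed to 60920 CPM on Day 3 and 37579 on Day 7 and the mast cell markers to 1442 and 17.7. The fibroblast markers there summed to 1017 and 11099 and the macrophage markers to 498 and 1678. Fibroblast-like cells had *Il33* at 156 CPM on Day 7. The part of these marker differences and of fibroblast RNA in the lower values, and in the higher *Il33* and *Il18bp*, was not tested.

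In fibroblast-like cells *Il1r1* (-1.04, -1.10 to -0.97) and *Il33* (-1.82, -1.86 to -1.78) were at least 2-fold lower on Day 7 than on Day 3, as were 10.1% of 14481 genes, and no member was 2-fold higher, against 12.7% of genes. *Il1r1* sat at the threshold and was short of it with median-of-ratios scaling, with the mean of each cell's CPM or without the 50 most abundant genes. *Il33* stayed past 2-fold under each alternative tried. The Day 3 class was mostly cluster 19 (357 of 506 cells) with a median of 38070 UMIs per cell, against 10024 on Day 7, when clusters 3 and 4 held 1651 and 1597 cells; the part of depth in these differences was not tested. Within cluster 19, *Il33* was at 572 (561 to 583) CPM on Day 3 and 143 (133 to 153) on Day 7, and *Il1r1* at 158 (153 to 164) and 93.7 (85.9 to 102).

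From Day 7 to Day 14, *Il1rl1* (-1.62, -1.68 to -1.57), *Il1b* (-2.67, -2.87 to -2.47), *Il1rn* (-2.01, -2.38 to -1.66) and *Il1a* (-1.56, -2.56 to -0.63) were lower in fibroblast-like cells, beside 8.94% of 15679 genes. Neutrophil markers in this class summed to 111 CPM on Day 7 and 37.6 on Day 14, and macrophage markers to 335 and 209; their part in the lower *Il1b*, *Il1rn* and *Il1a* was not tested. The class was in different clusters on the 2 days: clusters 3 and 4 had 1651 and 1597 cells on Day 7 and 41 and 59 on Day 14, and clusters 8 and 10 had 64 and 31 against 1449 and 1310. Within cluster 7, with 559 and 969 cells, *Il1rl1* was at 8.84 (6.45 to 11.8) CPM on Day 7 and 8.51 (6.80 to 10.5) on Day 14, and within cluster 17, with 127 and 890 cells, at 150 (126 to 177) and 89.7 (83.4 to 96.3). *Il1r2* was higher (1.02, 0.94 to 1.10), beside 9.50% of genes, and sat at the threshold. Cluster 14, the highest in *Il1r2*, had 20 cells on Day 7 and 1075 on Day 14. The median log2 ratio of members was -0.49 beside -0.08 over all genes for Day 7 over Day 3, and -0.36 beside -0.13 for Day 14 over Day 7.

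**Figure D5:**
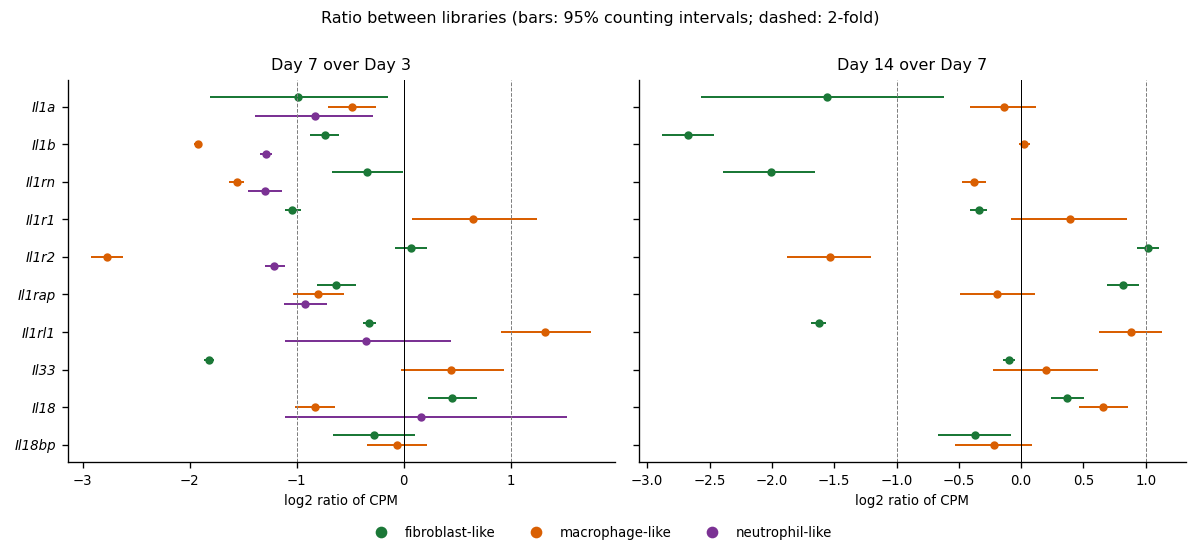
Log2 ratio of CPM between libraries for the members with at least 20 UMIs in both sums, by class, with 95% counting intervals and lines at 2-fold. On Day 7 *Il1b*, *Il1rn* and *Il1r2* are past 2-fold lower in the macrophage-like and in the neutrophil-like class, and *Il33* in the fibroblast-like class.

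Within each library, macrophage-like and fibroblast-like cells were compared at 4-fold. *Il1a*, *Il1b* and *Il1rn* were higher in macrophage-like cells on all 3 days, joined by *Il1r2* on Day 3 and *Il18bp* on Day 14. Of all genes, 13.0%, 10.9% and 10.3% were. *Il1r1* and *Il33* were higher in fibroblast-like cells on all 3 days, with *Il1rl1* on Days 3 and 7 and *Il1r2* on Day 14. Of all genes, 21.2%, 18.8% and 17.3% were. The decoy gene was at least 4-fold apart in opposite directions on Days 3 and 14 in these classes, at 141 against 28.2 CPM and at 7.13 against 60.1 CPM. The Day 3 direction rested on cluster 20, since macrophage-like cluster 1 was at 11.6 CPM, below the fibroblast-like class, and clustering each library alone changed the macrophage *Il1r2* ratio between Days 7 and 3 as given above. *Il1rap* and *Il18* were less than 4-fold apart on each day.

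Other genes of the pathway were counted in lists. Of 18 genes known to respond to interleukin 1 in fibroblasts, 8 were at least 2-fold lower and 2 higher in fibroblast-like cells on Day 7 than on Day 3, beside 10.1% and 12.7% of all genes, with a median log2 ratio of -0.79. The farthest lower were the granulocyte growth factor *Csf3* (106 to 5.41 CPM, -4.29) and the neutrophil chemokine *Cxcl5* (2285 to 184 CPM, -3.64). The farthest higher were the collagenase *Mmp13* (0.204 to 19.8 CPM, 6.60) and the adhesion gene *Icam1* (44.9 to 93.5 CPM, 1.06). From Day 7 to Day 14, 6 were lower and 1 higher, beside 8.94% and 9.50% of all genes, with a median of -0.10. The chemokine *Ccl20* (1.36 to 0.0410 CPM, -5.05) and *Mmp13* (19.8 to 1.04 CPM, -4.25) were the farthest lower, and *Icam1* was again higher (93.5 to 276 CPM, 1.56). In macrophage-like cells 5 of 17 were lower and 1 higher on Day 7 (all genes 5.40% and 12.7%; median -0.72), with the prostaglandin synthase *Ptgs2* (1435 to 436 CPM, -1.72) the farthest lower. The higher gene was the stromelysin *Mmp3* (5.42 to 24.0 CPM, 2.15), which fibroblast-like cells had at 468 and 665 CPM. The fibroblast markers in macrophage-like cells went from 427 to 3804 CPM, and their part in its ratio was not tested. On Day 14, 5 were lower and 3 higher (all genes 6.51% and 5.65%, median 0.23), from *Saa3* (61.2 to 2.11 CPM, -4.86) to the monocyte chemokine *Ccl7* (513 to 1424 CPM, 1.47). Fibroblast-like cells had *Saa3* at 574 and 48.6 CPM and *Ccl7* at 1156 and 1999 CPM on Days 7 and 14. The part of fibroblast RNA in these macrophage ratios was not tested. In neutrophil-like cells 4 of 16 were lower and 4 higher on Day 7 (all genes 9.37% and 17.5%; median -0.30). The higher genes were *Il6* (33.1 to 183 CPM, 2.47), *Mmp3* (16.5 to 57.2 CPM, 1.79), *Ccl7* (67.8 to 195 CPM, 1.52) and *Lif* (6.61 to 18.7 CPM, from 4 and 18 UMIs, with a log2 interval of -0.10 to 3.52 that includes 0), and the lower ones *Csf3*, *Cxcl5*, *Ptgs2* and *Nfkbiz*. The fibroblast markers in this class went from 1017 to 11099 CPM, and their part in the higher values was not tested.

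Of 13 signalling genes, from the adaptor *Myd88* to the NF-κB subunits, 0 were 2-fold lower or higher in fibroblast-like cells on Day 7 (all genes 10.1% lower and 12.7% higher; median -0.50), with *Nfkb1* the lowest (474 to 243 CPM, -0.97). On Day 14 the kinase gene *Irak2* (4.08 to 1.13 CPM, -1.85) and *Tab1* (3.75 to 1.86 CPM, -1.01) were lower, 2 of 13 beside 8.94% of all genes. *Tab1* sat at the threshold. Macrophage-like cells had *Irak2* at 36.4 CPM on Day 7 and 43.4 on Day 14. Neutrophil and macrophage markers in fibroblast-like cells were lower on Day 14, as given above, and their part in the *Irak2* ratio was not tested. *Irak2* was also the 1 signalling gene past 2-fold in macrophage-like cells on Day 7 (87.0 to 36.4 CPM, -1.26), 1 of 13 beside 5.40% of all genes lower. None of the 13 was past 2-fold on Day 14, beside 6.51% of all genes lower and 5.65% higher. In neutrophil-like cells *Irak1* was higher on Day 7 (13.2 to 33.3 CPM, 1.33), 1 of 12 genes compared, beside 17.5% of all genes. The ratio rests on 8 and 32 UMIs, with a log2 interval of 0.18 to 2.66. On Day 7 *Irak1* was at 48.2 CPM in fibroblast-like and 60.4 in macrophage-like cells. The part of their RNA in the neutrophil-like value was not tested.

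Of the genes for processing and release, the inflammasome sensor *Nlrp3* was lower on Day 7 in macrophage-like cells (329 to 152 CPM, -1.11; 1 of 8 genes, beside 5.40% of all genes) and in neutrophil-like cells (2733 to 1220 CPM, -1.16), where *Casp4* was lower too (152 to 67.7 CPM, -1.17; 2 of 5 genes, beside 9.37% of all genes). *Casp4* was the 1 gene past 2-fold in macrophage-like cells on Day 14 (39.0 to 81.1 CPM, 1.06), 1 of 8 beside 5.65% of all genes higher. The pathway lists were not counted again under other scalings. Leaving out the 50 most abundant genes moved the median over all genes. For Day 7 over Day 3 it went from 0.01 to 0.28 in macrophage-like and from 0.04 to 0.47 in neutrophil-like cells. For Day 14 over Day 7 in macrophage-like cells it went from -0.11 to -0.22. The above calls of *Nlrp3* and *Casp4* lie near 2-fold and may not hold under that scaling. In fibroblast-like cells the adaptor *Pycard* was higher on Day 7 (7.90 to 28.6 CPM, 1.86), 1 of 6 genes beside 12.7% of all genes. On Day 14 *Casp1*, the enzyme that cuts IL1β, was higher (5.99 to 12.9 CPM, 1.11) and *Nlrp3* lower (5.68 to 1.70 CPM, -1.74), 1 of 6 each way beside 9.50% and 8.94% of all genes. Macrophage markers in fibroblast-like cells summed to 102, 335 and 209 CPM on the 3 days and neutrophil markers to 77.1, 111 and 37.6, and *Pycard* in macrophage-like cells was at 120 and 129 CPM on Days 3 and 7. *Nlrp3* in macrophage-like cells went from 152 to 263 CPM from Day 7 to Day 14. The part of macrophage and neutrophil RNA in these fibroblast values was not tested. *Il1f9*, which encodes IL36γ, was the 1 of 5 other family ligands with enough UMIs, and was lower on Day 7 in neutrophil-like cells (559 to 147 CPM, -1.93), beside 9.37% of all genes. In fibroblast-like and macrophage-like cells it was at 1.18 CPM or below, with log2 ratios of -1.70 (-2.67 to -0.73) and 0.80 (-0.30 to 2.06) for Day 7 over Day 3 and -1.19 (-2.45 to -0.03) and -1.54 (-3.26 to -0.17) for Day 14 over Day 7. Among the 6 other receptor genes, *Il1rl2*, the IL36 receptor, went with the fibroblast-like class (90.6 to 56.6 CPM, -0.68 on Day 7 against Day 3). In fibroblast-like cells 2 of 4 of these receptor genes were past 2-fold higher on Day 7 (all genes 12.7%) and 2 of 5 lower on Day 14 (all genes 8.94%), in both cases *Il18rap* and *Sigirr*, at levels under 1 CPM. The Day 7 ratio of *Sigirr* rests on 20 against 3 UMIs, with a log2 interval of -0.72 to 3.43 that includes 0. In macrophage-like cells 1 of 4 was past 2-fold lower on Day 7, *Sigirr* (2.33 to 1.07 CPM, -1.12), and 1 of 4 on Day 14, *Il18rap* (4.39 to 1.86 CPM, -1.24), beside 5.40% and 6.51% of all genes, and none was higher. *Il18rap* was at 225 and 202 CPM in neutrophil-like cells on Days 3 and 7.

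Over 23 class-by-day sums, the genes most like a member were found by Pearson's correlation of log2(CPM + 1) among 12758 genes. This is a description, since the sums share libraries and depth. For *Il1r1* they were *Ebf1* (0.98), *Cdr2l* (0.93) and *Osmr* (0.92). For *Il33* they were *Clmp* (0.93), *Lrrc15* (0.91) and *Vegfd* (0.91), and for *Il1b* *Zfp263* (0.98), *Lilrb4a* (0.97) and *Plek* (0.97). *Il1rn* went with *Olr1* (0.93), *Ccl3* (0.93) and *Clec4e* (0.92), and *Il1r2* with *Mcemp1* (0.89), *Nfe2* (0.89) and *Trim30b* (0.88). The closest to *Il1a* was *Vps4b* (0.96), to *Il1rap* *B230208H11Rik* (0.93), to *Il1rl1* *Stk38* (0.78), to *Il18* *Adora2b* (0.72) and to *Il18bp* *Rab29* (0.74).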

How the data were processed

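The authors deposited 1 table of raw UMI counts per gene and cell barcode for each of the 3 libraries, made with Chromium 3′ v3.1 chemistry. The submitters' processing notes name Cell Ranger 6.0.0 and mm10. No further filter or normalisation of these counts was found, and each barcode held at least 500 UMIs. The labels' design text and the methods describe the wound differently (incision or punch), and the methods were followed.

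Cells with at least 200 genes, 500 UMIs and at most 10% mitochondrial UMIs were kept. Doublets were scored against simulated doublets among 50 neighbours, and the cells with the highest scores, 0.5 of the expected number (0.8% per 1000 barcodes), were removed (92, 1978 and 962 cells on Days 3, 7, and 14). The remaining 37460 cells were clustered once on 2000 variable genes and 30 principal components. Kept out of clustering were 171 genes: the 10 members, the pathway lists, mitochondrial and ribosomal protein genes and *Gm42418*. These genes were also kept out of the leading genes of a cluster. The Leiden method with 15 neighbours at resolution 2 gave 42 clusters (scikit-learn 1.9.0, igraph 0.11.9, leidenalg 0.10.2, NumPy 2.4.6, SciPy 1.17.1, Python 3.11.15). A cluster was named from fixed markers. The share of markers required (40%) and the exclusion of the members were set after the clusters had been seen, and cluster names are rebuilt, not the authors'. Unnamed cells were 9.38%, 2.49% and 1.42% of the cells on Days 3, 7, and 14.

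For each class of a library, the UMIs of a gene were added up and divided by the total of the class (CPM). Poisson intervals for levels, conditional binomial intervals for ratios and Clopper-Pearson intervals for shares were exact, at 95%, and cover counting error only. A sum of 0 UMIs entered ratios at a floor of 3 counts. For shares of cells with a UMI, cells were thinned to 500 UMIs. The scripts were tested on simulated counts. With 1 library per day no test was run. All members are named, and of the pathway lists, genes among the 2 highest or 2 lowest ratios or, named after their values were seen, genes past 2-fold. The other family ligands were matched through RefSeq synonyms. The members and lists were chosen with earlier results of these data known. Alternatives were other scalings, mitochondrial limits, doublet removal, clustering, class calls, a higher count minimum and a deeper thinning.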

Additional observations from a re-analysis of the deposited data

Results flagged for a closer look

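Fibroblast-like and macrophage-like cells moved in opposite directions between neighbouring days for *Il1r1*, *Il1r2*, *Il1rl1* and *Il18*, with counting intervals that did not include 0. Neighbouring days are Day 7 over Day 3 or Day 14 over Day 7. Only the members were screened for this, so no share over all genes stands beside it. Large sums give narrow intervals, and small shifts can meet the rule. With 1 library per day these differences between classes were not tested. *Il1r1* had a log2 ratio of -1.04 in fibroblast-like and 0.65 in macrophage-like cells for Day 7 over Day 3, the latter at levels of 2.63 and 4.13 CPM. *Il1r2* had 1.02 in fibroblast-like and -1.53 in macrophage-like cells for Day 14 over Day 7. *Il1rl1* had -0.32 in fibroblast-like and 1.32 in macrophage-like cells for Day 7 over Day 3, and -1.62 and 0.88 for Day 14 over Day 7. *Il18* had 0.45 in fibroblast-like and -0.83 in macrophage-like cells for Day 7 over Day 3. The fibroblast markers in macrophage-like cells summed to 427, 3804 and 4964 CPM on Days 3, 7, and 14, and their part in the macrophage values of *Il1r1* and *Il1rl1* was not tested. Over the longer interval, Day 14 over Day 3, *Il33* had -1.92 (-1.96 to -1.89) in fibroblast-like and 0.65 (0.12 to 1.18) in macrophage-like cells. The macrophage *Il33* values were 3.99 CPM on Day 3 and 6.24 on Day 14, from 53 and 77 UMIs. Relative to *Col1a1* they were close to the fibroblast values, as given above, and the part of fibroblast RNA in them was not tested. *Il1rap* had 0.19 (0.03 to 0.34) in fibroblast-like and -0.99 (-1.29 to -0.69) in macrophage-like cells over that interval.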

How the results depend on the processing

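The number of members at least 2-fold apart between Days 7 and 3 in fibroblast-like cells was 2. It was 1 without the 50 most abundant genes or with median-of-ratios scaling, where *Il1r1* was short of 2-fold. It was 4 with the full expected doublet rate removed, where *Il1a* and *Il1b* were added. Of all genes, 6.73%, 8.54% and 10.4% were lower in these settings and 16.8%, 14.1% and 12.1% higher. The reported *Il1a* ratio was -0.99, from 36 and 22 UMIs. In neutrophil-like cells the number of members was 3, and 0 without the 50 most abundant genes. It was 5 at a mitochondrial limit of 5%, 6 at 20%, 6 with doublets kept and 5 with each library clustered alone. The shares of all genes in these neutrophil settings are given above. In macrophage-like cells the number was 1 for Day 14 over Day 7. It was 2 with each library clustered alone or with the class called per cell, where *Il1rl1* was added. Of all genes, 6.74% and 6.67% were then lower and 5.98% and 5.28% higher. The log2 ratio of *Il1r2* in macrophage-like cells for Day 7 over Day 3 changed sign, from -2.77 to 0.27, with each library clustered alone. The causes were not tested. The other counts of members stayed within 1.5 times the reported ones. Adding cluster 23 to the neutrophil-like class, chosen after seeing the data, gave 4 members, *Il1a*, *Il1b* and *Il1rn* lower and *Il33* higher. The *Il33* call rests on the few UMIs given above, and the part of fibroblast RNA in it was not tested. Of 47 member log2 ratios, between 28 and 39 stayed within their counting interval under each alternative that kept all of them.

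Leaving out the 50 most abundant genes moved the median log2 ratio of all genes for Day 7 over Day 3 from 0.01 to 0.28 in macrophage-like, from -0.08 to 0.15 in fibroblast-like and from 0.04 to 0.47 in neutrophil-like cells. Median-of-ratios scaling moved it for Day 14 over Day 7 from -0.11 to 0.00 in macrophage-like and from -0.13 to 0.00 in fibroblast-like cells. Thinning to 1000 in place of 500 UMIs moved 64 of 80 shares of cells. No paired analysis was possible because each day is 1 library, and for the same reason no replicate could be left out.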
